A study of Mus musculus with 8 samples.

Results

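The acyl-CoA thioesterase (Acot) genes were examined in the liver of aged obese female mice fed with or without docosahexaenoic acid (DHA). The 10 genes Acot1, Acot2, Acot3, Acot4, Acot7, Acot8, Acot9, Acot11, Acot12 and Acot13 were found by gene symbol among the 56884 genes of the count tables, and each matched 1 gene identifier. The DIO group (diet-induced obese, 3 mice) consisted of C57BL/6J females that ate a high fat diet, with lipids giving 45% of the energy, from the age of 2 months until 18 months. The DIO + DHA group (5 mice) was of the same strain and sex, ate the same diet from the age of 2 months for 4 months before the groups were formed, and was also sampled at 18 months. After those 4 months 15% by weight of its dietary lipids was replaced by a fish oil concentrate with 683.4 mg DHA and 46.7 mg EPA per g. This concentrate held 838.9 mg of omega-3 fatty acids per g in all, and took the place of part of the saturated fat. Mice were sampled after an overnight fast. There was no group on a regular diet, so the values compare the high fat diet with and without this replacement, within obesity only. Poly(A) RNA was sequenced from its 3′ end, with 1 library per mouse, and the libraries are named here by group and mouse number.

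Acyl-CoA thioesterases cut an acyl-CoA into a free fatty acid and coenzyme A (CoA), the reverse of the step by which acyl-CoA synthetases activate a fatty acid. They thereby set how much acyl-CoA and free CoA each compartment of the cell holds. Type I enzymes, coded by Acot1 to Acot6 in the mouse, share an alpha/beta hydrolase fold and arose by gene duplication, with ACOT1 in the cytosol, ACOT2 in mitochondria and ACOT3 and ACOT4 in peroxisomes. Type II enzymes share a different, hotdog, fold and are spread over several chromosomes. Several type I genes are textbook targets of PPAR alpha, the nuclear receptor through which fatty acids switch on genes of fatty acid oxidation in liver.

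The libraries held 1723800 to 5690347 counts, and DIO mouse 1 was the shallowest. Of all genes, 12412 were tested, and 1883 of them differed between the groups. Summed hepatocyte markers, led by Alb and Apoa2, lay between 138331 and 147081 CPM (counts scaled to a common library total by the TMM method) in the DIO libraries and between 150138 and 166682 in the DIO + DHA libraries, and 4 of 9 rose and 1 fell. Markers of several other tissues were higher where DHA was eaten. The 20 skeletal muscle genes summed to 66.9 to 70.9 CPM in the DIO group and 1621 to 1759 in the DIO + DHA group, and all 20 rose. Brown fat genes went from 24.5 to 28.7 CPM to 124 to 151, and Ucp1, their defining gene, was at 0 in all DIO libraries and at 2.85 to 5.03 CPM in the DIO + DHA libraries, and 5 of 5 tested genes rose and Otop1 was at 0 in all libraries. Adipocyte genes went from 48.1 to 54.3 CPM to 137 to 162 CPM (5 of 6 rose and 1 fell), and stratified squamous epithelium genes from 25.4 to 29.8 CPM to 106 to 115 CPM (7 of 8 rose). Dsp gave 26.1 CPM of the mean squamous sum of 27.3 CPM in the DIO group, and 27.5 of 111 CPM in the DIO + DHA group. Macrophage and Kupffer cell genes were lower, at 1064 to 1157 CPM against 589 to 628 (12 of 14 fell and 1 rose). The sums were also lower for T cell genes (21.1 to 29.8 against 13.1 to 16.9, 2 of 6 fell) and liver endothelium genes (197 to 220 against 148 to 175, 2 of 8 fell). Of all tested genes 7.28% fell. In the endothelium list Pecam1 (means 5.87 and 6.27 CPM), Cdh5 (4.83 and 5.69) and Kdr (18.7 and 19.8) were not lower. The other endothelium genes, led by Clec4g (72.8 and 48.3), were. Among T cell genes Cd2 (1.53 and 1.78) was not lower and Lck (3.89 and 3.86) hardly moved, whereas the others were lower. In bulk tissue, fewer cells of a type and less RNA per cell cannot be told apart. The part of these tissues in the Acot results was not tested.

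In the DIO + DHA group Acot1 and Acot2 rose and Acot3 fell, whereas none of the other 7 Acot genes passed the test. All 10 genes were tested, by the quasi-likelihood F test of edgeR, and p-values were adjusted by the Benjamini-Hochberg method over all tested genes. The 3 genes that passed were 30% of the family, beside 15.2% of all tested genes. Those that rose were 2 of 10, beside 7.89% of all genes, and the gene that fell was 1 of 10, beside 7.28%. The 3 genes were all of type I, in which 3 of 4 passed, and 0 of 6 type II genes did (by edgeR, DESeq2 or limma-voom, and 1 of them, Acot11, had an unadjusted edgeR p under 0.05). For so few genes, 0 of 6 is near the 15.2% of all tested genes. Among the type II genes, Acot8, Acot9 and Acot11 also rest on only 146, 218 and 42 counts in all. By the rule of the study's methods (B, the log-odds of limma-voom, above 0) the same 3 genes passed, beside 6.93% of all tested genes. The libraries of the groups did not overlap for Acot1, Acot2, Acot3 and Acot9, which were 4 of 10 genes, beside 18.4% of all tested genes. The median log2 fold change was -0.07 over the 10 genes and 0.001 over all genes tested.

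**Figure D1:**
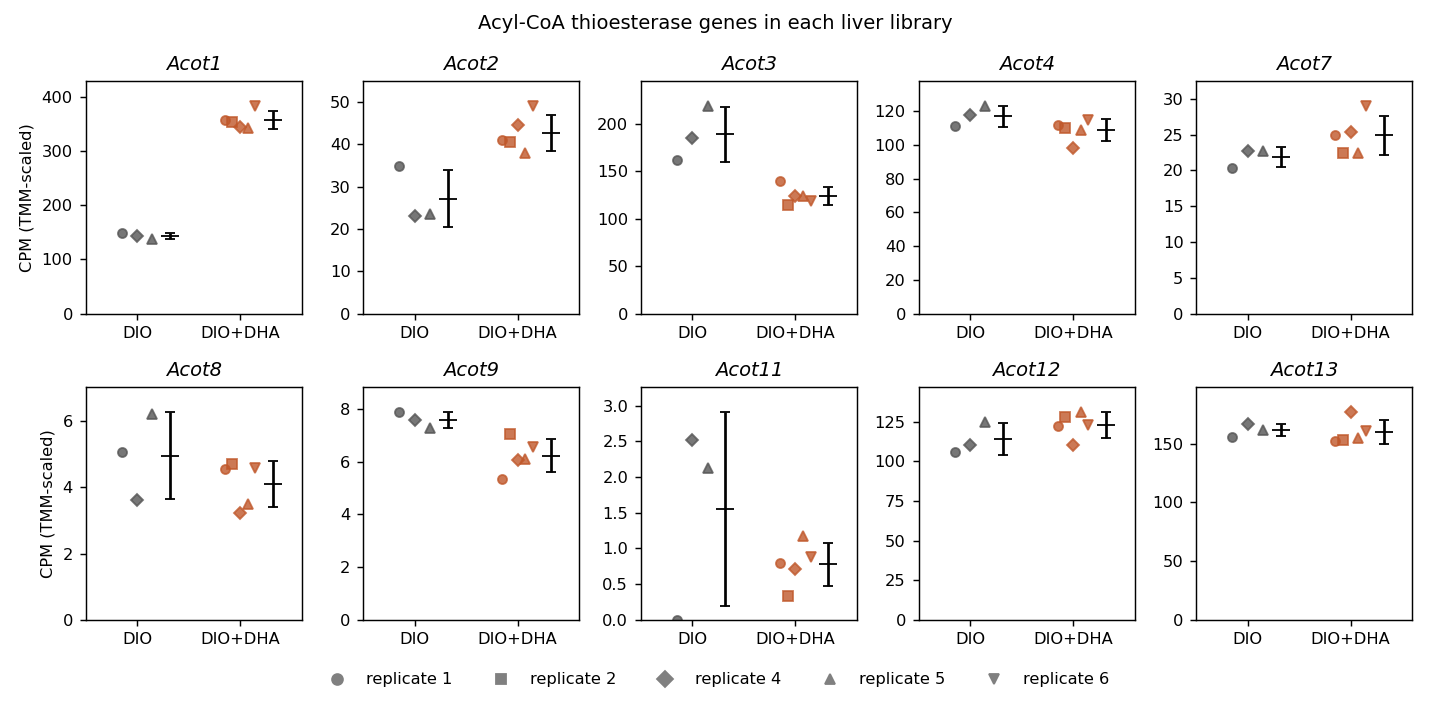
Each panel plots the level of 1 Acot gene in CPM (y axis, from 0) in the 3 DIO (grey) and 5 DIO + DHA (orange) libraries, with symbols for the mouse number and black bars for the mean and SD. Acot1 lay at 343 to 383 CPM in the DIO + DHA libraries, above the 137 to 149 CPM of the DIO libraries, and Acot3 lay at 115 to 140 CPM, below 162 to 219.

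Acot1 codes for the cytosolic type I enzyme, which acts on long-chain acyl-CoA. It gave 149, 143 and 137 CPM in DIO mice 1, 4 and 5, and 358, 354, 345, 343 and 383 CPM in DIO + DHA mice 1, 2, 4, 5 and 6. Each DIO + DHA library thus lay above each DIO library, and within a group the libraries were close together. In CPM, the mean ± SD rose from 143 ± 5.59 (n = 3) to 357 ± 16.0 (n = 5), with 264 to 1803 counts per library. The log2 fold change was 1.32 (SE 0.07, 95% interval 1.17 to 1.47), or 2.5-fold, with an edgeR adjusted p of 1.2e-21. It ranked number 34 by p among all tested genes.

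Acot2 codes for the mitochondrial counterpart of ACOT1. Its levels were 34.9, 23.1 and 23.6 CPM in DIO mice 1, 4 and 5 and 41.1, 40.6, 44.6, 37.9 and 49.1 CPM in DIO + DHA mice 1, 2, 4, 5 and 6. The groups did not overlap, but DIO mouse 1, whose value rests on the 62 counts of the shallowest library, came closest to the DIO + DHA libraries. In CPM, the mean ± SD rose from 27.2 ± 6.67 (n = 3) to 42.7 ± 4.33 (n = 5). The log2 fold change was 0.74 (SE 0.13, 95% interval 0.49 to 0.99; edgeR adjusted p = 6.8e-06), or 1.67-fold.

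Acot3 codes for a peroxisomal enzyme that acts on long-chain acyl-CoA. It gave 162, 185 and 219 CPM in DIO mice 1, 4 and 5 and 140, 115, 124, 124 and 119 CPM in DIO + DHA mice 1, 2, 4, 5 and 6. Every DIO library was above every DIO + DHA library, and DIO mouse 5 was the highest of the 8. In CPM, the mean ± SD fell from 189 ± 28.6 (n = 3) to 124 ± 9.51 (n = 5), with a log2 fold change of -0.61 (SE 0.08, 95% interval -0.78 to -0.45; edgeR adjusted p = 3.2e-08). The DIO mean was 1.52 times the DIO + DHA mean.

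Acot4 codes for the peroxisomal enzyme that acts on succinyl-CoA and other dicarboxylic acyl-CoA. Its levels were 111, 118 and 123 CPM in DIO mice 1, 4 and 5 and 112, 110, 98.1, 109 and 115 CPM in DIO + DHA mice 1, 2, 4, 5 and 6. These groups overlapped. In CPM, the mean ± SD was 117 ± 6.09 (n = 3) against 109 ± 6.49 (n = 5), with a log2 fold change of -0.11 (95% interval -0.27 to 0.05; edgeR adjusted p = 0.422).

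**Figure D2:**
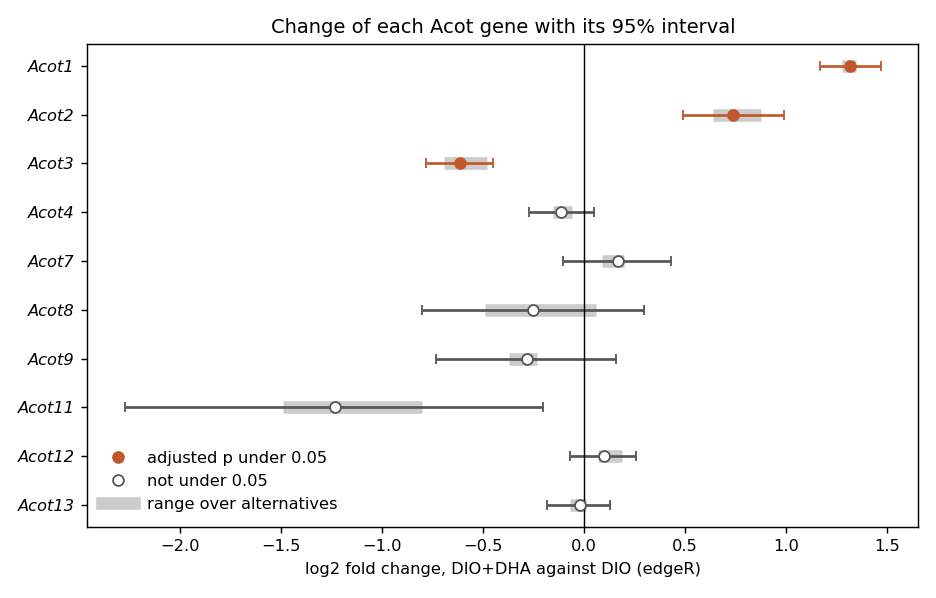
Points give the log2 fold change of each Acot gene (x axis, DIO + DHA against DIO) with its 95% interval, filled orange where the edgeR adjusted p was under 0.05, and grey bands give the range over the alternative settings. The intervals of Acot1 and Acot2 lie above 0 and that of Acot3 below 0, and Acot11 has the widest interval, -2.27 to -0.20.

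The type II genes were led by Acot13, which codes for a small enzyme, also called THEM2, that sits at mitochondria and acts on long-chain acyl-CoA. Its levels were 156, 167 and 162 CPM in DIO mice 1, 4 and 5 and 152, 153, 177, 155 and 161 CPM in the DIO + DHA mice, in the order above. The groups overlapped nearly fully, with a log2 fold change of -0.02 (95% interval -0.18 to 0.13; edgeR adjusted p = 0.897). Its direction was positive, at 0.01, without DIO mouse 4. Acot12, the cytosolic acetyl-CoA hydrolase of liver, gave 106, 110 and 125 CPM in the DIO libraries and 110 to 131 CPM in the DIO + DHA libraries. Its log2 fold change was 0.10 (95% interval -0.07 to 0.26; edgeR adjusted p = 0.517). For Acot4, Acot12 and Acot13, with 3703, 3928 and 5235 counts in all, a change as large as that of Acot2 lay outside the 95% interval.

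The other type II genes were less abundant, and their intervals were wider. Acot7, which codes for a cytosolic enzyme that is abundant in brain, lay between 20.3 and 22.7 CPM in the DIO and between 22.5 and 29.0 CPM in the DIO + DHA libraries, with a log2 fold change of 0.17 (95% interval -0.10 to 0.43; edgeR adjusted p = 0.48). Acot9, a mitochondrial enzyme, gave 7.88, 7.57 and 7.28 CPM in DIO mice 1, 4 and 5 and 5.36, 7.04, 6.07, 6.09 and 6.55 CPM in the DIO + DHA mice. Although the groups did not overlap, these values rest on 14 to 42 counts per library. The log2 fold change of -0.28 (95% interval -0.73 to 0.16) did not pass the test (edgeR adjusted p = 0.473).

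Acot8 codes for a peroxisomal enzyme of broad specificity. It lay between 3.61 and 6.21 CPM in the DIO and between 3.21 and 4.69 CPM in the DIO + DHA libraries, with 9 to 35 counts each. Its log2 fold change was -0.25 (95% interval -0.80 to 0.30; edgeR adjusted p = 0.646) and turned to 0.06 without DIO mouse 5. Acot11 codes for an enzyme known from brown fat, where cold induces it. It gave 0, 2.52 and 2.13 CPM in DIO mice 1, 4 and 5 and 0.793, 0.335, 0.714, 1.17 and 0.874 CPM in the DIO + DHA mice, from 42 counts in all. The count of 0 in DIO mouse 1 allows up to 1.69 CPM, from 3 counts and for counting error only. The log2 fold change was -1.23 (95% interval -2.27 to -0.20) with an edgeR adjusted p of 0.104, and without DIO mouse 1 it was -1.49 with an adjusted p of 0.0453. A difference in Acot11 was therefore not established at this depth.

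Per kb of exon, Acot13 was the most abundant member in both groups, at 217 CPM per kb in the DIO and 215 in the DIO + DHA group. It was followed in the DIO group by Acot3 (54.9), Acot1 (36.5), Acot12 (34.6), Acot4 (17.6), Acot2 (12.4), Acot7 (10.3), Acot9 (3.33), Acot8 (2.48) and Acot11 (0.256 CPM per kb). Neighbours in this order overlapped between libraries only for Acot1 with Acot12 and Acot2 with Acot7. In the DIO + DHA group Acot1 came next to Acot13, at 91.0 CPM per kb, then Acot12 (37.2), Acot3 (36.2), Acot2 (19.4), Acot4 (16.3), Acot7 (11.7), Acot9 (2.74), Acot8 (2.06) and Acot11 (0.128). There, Acot12 overlapped with Acot3 and Acot2 with Acot4. Since the counts come mostly from 3′ ends, division by length favours short genes such as Acot13. Without division, Acot13 ranked number 2 by CPM in both groups, at 162 CPM after Acot3 (189 CPM) in the DIO group and at 160 CPM after Acot1 (357 CPM) in the DIO + DHA group.

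The type I genes are neighbours. In GRCm39, Acot2 (chr12:84034635-84040647), Acot1 (chr12:84056264-84065145), Acot4 (chr12:84085153-84095375), Acot3 (chr12:84098918-84107176), Acot5 (chr12:84116099-84122794) and Acot6 (chr12:84147428-84158123) follow each other on the plus strand within 123 kb. In this order Acot2 and Acot1 rose, Acot4 did not pass the test, and Acot3 fell. Acot5 and Acot6, the type I genes outside the 10, were near the detection limit. Acot5 gave 2 counts in the DIO and 21 counts in the DIO + DHA group, was not tested, and had a ratio of 6.92 per count sequenced, with a 95% exact interval of 1.69 to 60.8 for counting error only. Acot6 gave 17 and 42 counts, with a log2 fold change of 0.68 (95% interval -0.19 to 1.56; edgeR adjusted p = 0.35).

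**Figure D3:**
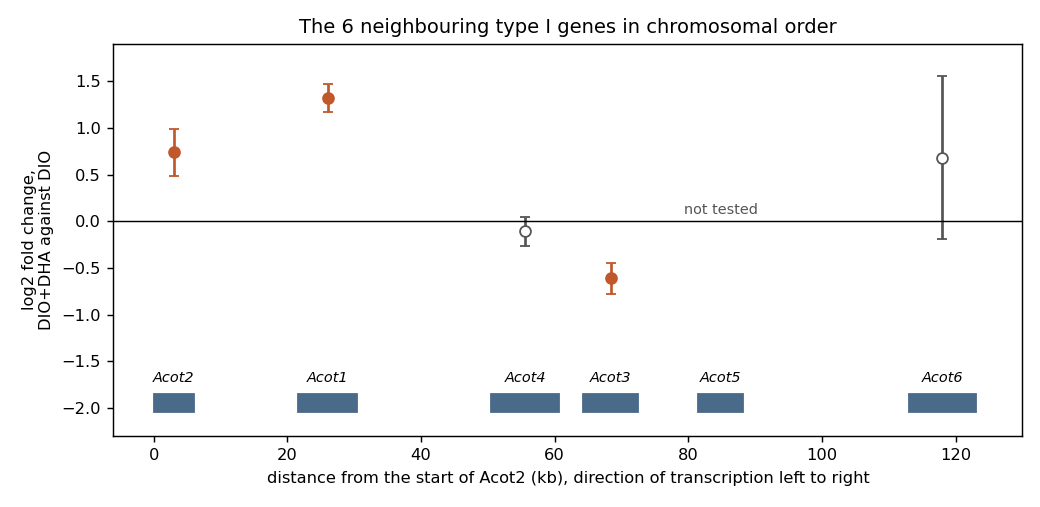
Blue boxes mark the 6 type I genes by distance from the start of Acot2 in kb (x axis), and points above them give the log2 fold change, DIO + DHA against DIO (y axis), with its 95% interval, filled where the edgeR adjusted p was under 0.05. From left to right, Acot2 and Acot1 lie above 0, Acot4 near 0 and Acot3 below 0, and Acot5 was not tested.

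The remaining members lie apart, with Acot7 (chr4:152262591-152356312) and Acot11 (chr4:106601752-106662195) on chromosome 4 but far from each other. Acot12 (chr13:91889631-91934267) and Acot13 (chr13:25001931-25015523) are likewise distant on chromosome 13. Acot8 is at chr2:164634685-164646802 and Acot9 at chrX:154045439-154080650. Acot10 (chr15:20665300-20666836), a close relative of Acot9, gave 4 and 6 counts and was not tested.

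The type I genes resemble each other enough for reads to be ambiguous. The coding sequences of Acot1 and Acot2 were 95.3% identical, those of Acot1 and Acot3 85.0%, and those of Acot3 and Acot4 76.0%. Of all windows of 80 bases, the length of the sequenced read, 16.6% in Acot1, 20.3% in Acot2, 22.6% in Acot3 and 5.04% in Acot4 occurred in another gene. In the last 500 bases of these 4 transcripts, where a 3′ library is read, 0 of 421 windows did. Acot3 shared 32.6% and Acot4 16.1% of its exon bases with overlapping genes, but 0% of the last 500. Of those overlapping genes, Gm49366 had 0 counts, and 4732463B04Rik, on the other strand, went from 11.4 to 9.99 CPM (log2 fold change -0.23, edgeR adjusted p = 0.476). Acot8 shared 49.2% of its last 500 exon bases with the antisense gene Snx21 (12.7 and 9.78 CPM; log2 fold change -0.37, edgeR adjusted p = 0.198), and since counting did not use strand its value is uncertain. Acot11 shared 20.9% of its exon bases with Fam151a, which had 0 counts. A read on shared exon bases may have been counted for neither gene. The 0 counts of Gm49366 and Fam151a therefore do not show that these genes were silent, and counts of the Acot genes that overlap others may be too low.

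The promoters of the 4 type I genes are printed to show what lies upstream of neighbours that moved apart. Each runs from 250 bases before to 30 bases after the RefSeq start, which is exon, and the sequences were taken from RefSeq's table for GRCm38.p6 and placed on the plus strand of GRCm39 by exact match. The RefSeq start of Acot1 lies 12 bases downstream of the start in the count tables. Capitals mark the motif CCAAT, which reads ATTGG on the minus strand, the motif AGGTCA, which reads TGACCT there, and the direct repeat, that is AGGTCA repeated after any 1 base, with up to 2 mismatches. The motif AGGTCA is a single site of many nuclear receptors, and the direct repeat is the form to which PPAR alpha binds with RXR.
Acot2 (chr12:84034385-84034664): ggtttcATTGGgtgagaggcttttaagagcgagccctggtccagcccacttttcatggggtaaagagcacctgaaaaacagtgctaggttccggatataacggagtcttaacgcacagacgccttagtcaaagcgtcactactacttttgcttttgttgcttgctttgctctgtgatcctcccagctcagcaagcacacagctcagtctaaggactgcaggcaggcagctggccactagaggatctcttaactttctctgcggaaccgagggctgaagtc
Acot1 (chr12:84056026-84056305): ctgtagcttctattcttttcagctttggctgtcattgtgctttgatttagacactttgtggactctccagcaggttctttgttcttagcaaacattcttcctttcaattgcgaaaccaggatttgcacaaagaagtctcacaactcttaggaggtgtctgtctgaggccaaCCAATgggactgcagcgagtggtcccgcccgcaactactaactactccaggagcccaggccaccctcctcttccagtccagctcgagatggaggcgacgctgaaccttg
Acot4 (chr12:84084903-84085182): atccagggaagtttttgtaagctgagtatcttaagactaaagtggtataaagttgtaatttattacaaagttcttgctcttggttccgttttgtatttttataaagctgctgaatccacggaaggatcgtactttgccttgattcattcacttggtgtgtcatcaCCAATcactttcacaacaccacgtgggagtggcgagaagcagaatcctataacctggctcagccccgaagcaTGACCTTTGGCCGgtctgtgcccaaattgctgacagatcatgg
Acot3 (chr12:84098668-84098947): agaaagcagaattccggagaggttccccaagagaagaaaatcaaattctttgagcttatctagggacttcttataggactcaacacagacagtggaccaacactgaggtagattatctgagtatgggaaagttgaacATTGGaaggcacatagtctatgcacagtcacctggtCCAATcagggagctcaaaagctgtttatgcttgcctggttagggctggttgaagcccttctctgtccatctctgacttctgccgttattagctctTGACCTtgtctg
CCAAT occurred in all 4 windows, with its first base 79 bases before the start in Acot1 and 85 bases before it in Acot4, at 2 places in Acot3, and far upstream in Acot2. It occurs in 37.9% of the 27025 promoters of the table. The direct repeat matched in Acot4 (TGACCTTTGGCCG, with 2 mismatches) and, among the type II genes, in Acot12, but in none of Acot1, Acot2 and Acot3, and it matched 3.81% of all promoters. AGGTCA alone lay within the Acot4 match and in Acot3 downstream of the start, and occurs in 16.0% of all promoters. TATAAA, not marked, occurred in Acot4 and in 14.2% of all promoters. A match is a description of the letters and not a binding site, and the table held 9 of the 10 members.

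Ratios between type I genes were taken within each library, so that the scaling of libraries drops out. All 6 pairs of Acot1, Acot2, Acot3 and Acot4 differed between the groups without overlap. Each gave an exact two-sided permutation p of 0.0179, the smallest that the 56 splits of 3 and 5 libraries allow, and 0.0179 after adjustment over 6 pairs. Of single tested genes 18.4% did not overlap between the groups, and the share over other pairs of genes was not computed. The ratio moved most for Acot1 to Acot3. Its log2 was -0.13, -0.37 and -0.67 in DIO mice 1, 4 and 5, and 1.35, 1.62, 1.48, 1.47 and 1.69 in DIO + DHA mice 1, 2, 4, 5 and 6. Thus Acot3 gave more counts than Acot1 in each DIO library, and fewer in each DIO + DHA library. The mean log2 ratio went from -0.39 ± 0.27 (SD, n = 3) to 1.52 ± 0.13 (SD, n = 5), a difference of 1.91.

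Acot1 also rose relative to Acot2, its closest relative in sequence. This log2 ratio was 2.42 ± 0.29 in the DIO (SD, n = 3) and 3.06 ± 0.10 in the DIO + DHA group (SD, n = 5), and the ranges, 2.08 to 2.63 and 2.95 to 3.17, were next to each other. Relative to Acot4, which did not pass the test by itself, the log2 ratio of Acot1 rose by 1.42, that of Acot2 rose by 0.78 and that of Acot3 fell by 0.48. The log2 ratio of Acot2 to Acot3 went from -2.80 ± 0.53 to -1.54 ± 0.20 (SD, n = 3 and 5). Hence the log2 ratios between these 4 neighbours differed between the groups without overlap. The pairs share genes, and Acot1, Acot2 and Acot3 had passed the test by themselves. The ratios are therefore not separate observations.

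**Figure D4:**
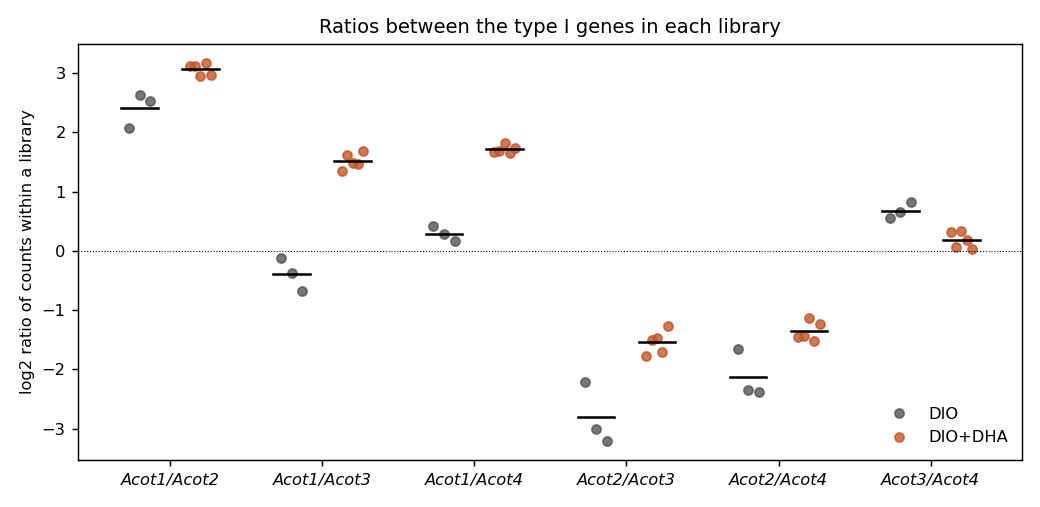
Points give the log2 ratio of counts between a pair of type I genes within a library (y axis) for 6 pairs (x axis), in grey for the 3 DIO and in orange for the 5 DIO + DHA libraries, with black lines for the means. The groups do not overlap in any pair, and the Acot1 to Acot3 ratio crosses 0, from -0.67 to -0.13 in the DIO to 1.35 to 1.69 in the DIO + DHA libraries.

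Genes whose pattern over the 8 libraries was most like that of a member that passed the test were sought among 6224 genes that averaged 10 CPM or more, by the mean absolute difference of centred log2 CPM. For Acot1 these were Bhmt (0.0659), an enzyme of methionine and betaine metabolism, Igfbp2 (0.0664), a binding protein of insulin-like growth factors, and Ehhadh (0.0667), the bifunctional enzyme of peroxisomal fatty acid oxidation. Bhmt went from 2308 to 5553 CPM, Igfbp2 from 289 to 756 CPM and Ehhadh from 152 to 362 CPM. For Acot2 they were Tor3a (0.0706), Lrrc8d (0.0896) and Ccnf (0.101). For Acot3 they were Slc35c2 (0.0551), Dgat2 (0.076), which makes triglycerides, and Psmb9 (0.077), a subunit of the immunoproteasome. Dgat2 went from 353 to 262 CPM and Psmb9 from 56 to 34.6 CPM. These values describe likeness over shared libraries and carry no test. With a prior count of 0.5 in place of 2, the same 3 genes were found for Acot1 and for Acot2, but only 2 of the 3 for Acot3.

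No rise was called among other thioesterases, and few would be in so short a list, since 7.89% of all tested genes rose. Of 14 listed genes outside the Acot family 11 were tested by edgeR, 0 rose (1 at an unadjusted p under 0.05, and 0 by DESeq2 or limma-voom) and 2 fell, which is 18.2% beside 15.2% of all tested genes. The median log2 fold change of the list was 0.05. Baat, which joins bile acids to taurine or glycine, went down from 119 ± 7.06 to 99.3 ± 3.92 CPM (mean ± SD, 3 and 5 mice; log2 fold change -0.26, edgeR adjusted p = 0.0163), and Ppt1, a lysosomal palmitoyl-protein thioesterase, from 22.9 ± 1.18 to 17.0 ± 2.20 CPM (log2 fold change -0.43, edgeR adjusted p = 0.0329). Neither call was firm. That of Baat was lost without DIO mouse 4 (adjusted p = 0.203), and that of Ppt1 when any of 6 single libraries was left out, namely DIO mouse 1 (0.0595), 4 (0.184) or 5 (0.0627) or DIO + DHA mouse 1 (0.096), 2 (0.057) or 5 (0.0674). Ppt1 also shares 25.8% of its last 500 exon bases with the antisense gene Cap1.

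The acyl-CoA synthetases, which run the reverse reaction, moved in both directions. Of 23 listed genes 16 were tested, 6 rose and 3 fell, or 56.2% beside 15.2% of all tested genes (7.89% higher and 7.28% lower), with a median log2 fold change of 0.08. Acsl5 rose from 156 ± 6.89 to 238 ± 14.5 CPM (mean ± SD, 3 and 5 mice; log2 fold change 0.61, edgeR adjusted p = 4.1e-09) and Acsl1 from 403 ± 22 to 531 ± 21.5 CPM (log2 fold change 0.40, edgeR adjusted p = 6.2e-06), and both code for long-chain synthetases. Slc27a1, a fatty acid transport protein known from muscle and fat, rose from 17.6 ± 4.69 to 31.0 ± 1.68 CPM (log2 fold change 0.92, edgeR adjusted p = 9e-07), beside the higher muscle and fat markers given above. Slc27a2, the very long-chain synthetase and the most abundant of the list, rose from 1653 ± 174 to 2375 ± 306 CPM (log2 fold change 0.52, edgeR adjusted p = 0.00265), a call that was lost with library size as the only scaling. Among medium-chain synthetases, Acsm5 fell from 48.3 ± 1.02 to 31.8 ± 4.29 CPM (log2 fold change -0.62, edgeR adjusted p = 2.5e-05) and Acsm1 from 144 ± 6.11 to 109 ± 3.71 CPM (log2 fold change -0.39, edgeR adjusted p = 0.00015). Slc27a5, which activates bile acids, fell from 783 ± 46.4 to 689 ± 50.3 CPM with an adjusted p of 0.0472 by edgeR, and this call was lost when any of 6 single libraries was left out, namely DIO mouse 1 (0.0501), 4 (0.0954) or 5 (0.329) or DIO + DHA mouse 1 (0.101), 2 (0.0884) or 5 (0.128).

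Among genes that supply or break down CoA, 3 passed the test, a share near that of all tested genes in either direction. All 3 rose, as did 7.89% of all tested genes. In this list 15 of 16 genes were tested by edgeR, 3 rose and 0 fell, or 20.0% beside 15.2% of all tested genes, with 1 lower at an unadjusted p under 0.05 and 0 by DESeq2 or limma-voom. These were Slc25a42, the mitochondrial CoA carrier, from 21.5 ± 1.41 to 34.4 ± 4.59 CPM (log2 fold change 0.70), Vnn1, which breaks down pantetheine, from 156 ± 11.2 to 211 ± 9.15 CPM (0.43), and Pank1, which starts CoA synthesis, from 222 ± 8.96 to 289 ± 18.3 CPM (0.37). In the list of genes that bind acyl-CoA or exchange its acyl groups 15 of 16 were tested by edgeR, 4 rose and 0 fell. That is 26.7% beside the same 15.2% in either direction and the 7.89% that rose. At an unadjusted p under 0.05, by DESeq2 or by limma-voom, 0 were lower. Dbi, the acyl-CoA binding protein, rose from 1734 ± 11.2 to 2514 ± 198 CPM (log2 fold change 0.54, edgeR adjusted p = 1.1e-09). Crat and Crot, the carnitine acetyl- and octanoyltransferases, rose by 0.49 and 0.37 on the log2 scale, and 11.8% of the last 500 exon bases of Crat overlap antisense genes.

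Of 42 PPAR alpha target genes, a list that does not hold any Acot gene, 42 were tested, 25 rose and 0 fell, or 59.5% beside the 15.2% of all tested genes by edgeR, with 1 lower at an unadjusted p under 0.05 and 0 by DESeq2 or limma-voom. Their median log2 fold change was 0.26. Of all tested genes 7.89% rose. The list was chosen with earlier results of these data known, so its share is a description. It also shares Acsl1, Vnn1, Crat, Cpt1a, Cpt2, Slc25a20, Abcd2 and Abcd3 with the lists above, so the lists are not separate observations. Ehhadh rose from 152 ± 7.91 to 362 ± 8.55 CPM (mean ± SD, 3 and 5 mice; log2 fold change 1.25, edgeR adjusted p = 7.7e-21), close in size to Acot1. Cyp4a10, a fatty acid omega-hydroxylase with near-identical relatives, so that its counts are uncertain, rose from 2689 ± 292 to 5105 ± 189 CPM (0.92). Cidec, a lipid droplet protein that was also in the adipocyte list, rose from 9.53 ± 1.85 to 48.9 ± 2.50 CPM (2.39), and Fabp1, the liver fatty acid binding protein, from 15067 ± 725 to 22355 ± 1656 CPM (0.57). Beside them, the type I genes Acot1 and Acot2 rose and Acot3 fell. The type I log2 fold changes were 1.32 (Acot1), 0.74 (Acot2), -0.61 (Acot3) and -0.11 (Acot4). Their median, 0.31, lies between values of opposite sign. The type II median was -0.14, and the abundant Acot12 and Acot13 were at 0.10 and -0.02. Of the type II genes 0 of 6 were called, which for so few genes is near the 15.2% of all tested genes.

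**Figure D5:**
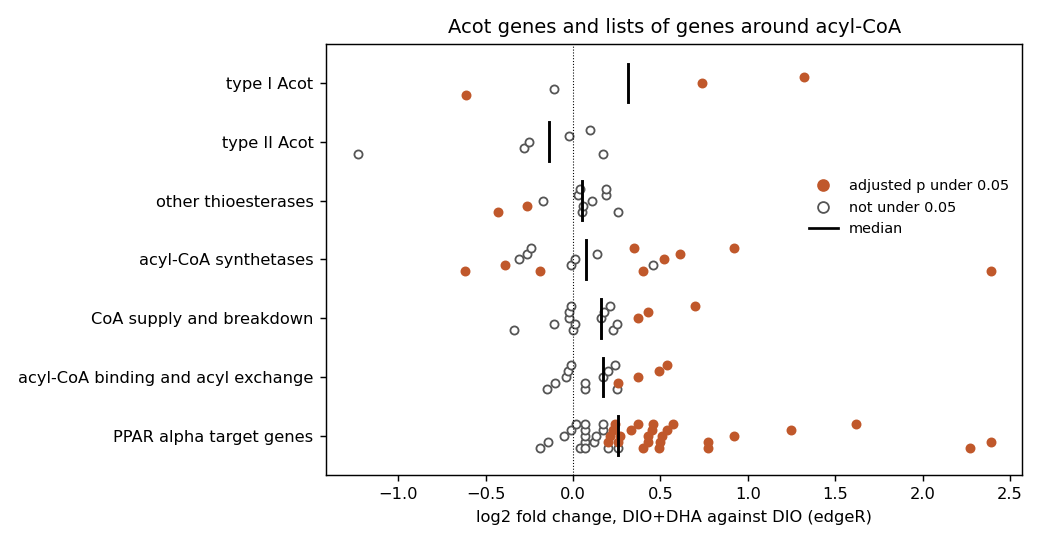
Each point is the log2 fold change of 1 tested gene (x axis, DIO + DHA against DIO) in the type I and type II Acot genes and 5 lists around acyl-CoA (y axis), filled orange where the edgeR adjusted p was under 0.05, with a black line at the median. The type I genes run from -0.61 to 1.32, and 25 of 42 PPAR alpha targets are filled, to the right of 0.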

How the data were processed

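Per the labels and methods, the authors purified poly(A) RNA, made barcoded 3′-enriched cDNA, trimmed the reads, aligned them to GRCm39 (STAR 2.7.9a) and counted those on exons of GENCODE mouse release 33 (featureCounts 1.6.0, FastQC 0.11.8 for quality). The deposited counts are whole numbers per gene and not normalized, and whether molecular identifiers were collapsed is not given in the sources used here. Counting used no strand, so antisense overlaps cannot be told apart, and unique alignments, which can lower counts in stretches shared by type I genes. Names came from GENCODE release 39, which held 56323 of the 56884 identifiers.

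A gene was left out if, in each group, over 50% of libraries had a count under 5. The counts of the other 12412 genes were scaled by TMM and tested with the robust quasi-likelihood F test of edgeR 4.0.16 (R 4.3.3), 3 DIO against 5 DIO + DHA libraries, with Benjamini-Hochberg adjustment at 0.05. The study's test, limma-voom (limma 3.58.1), and DESeq2 1.42.0 were alternatives, as were other scalings, filters, a replicate block and leaving out each library. The common biological coefficient of variation was 0.0801. Ratios used counts plus 0.5. For likeness, a prior count of 2 was added before the log2 of CPM.

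On simulated counts of 12018 genes for this comparison, 100% of 29 changed genes with a 2-fold change and at least 20 CPM were recovered, and 74.2% of 31 with a log2 change of 0.5. Over all levels, which include genes as low as Acot8, Acot9 and Acot11, 71% of 93 and 29.4% of 102 were recovered, with 10 false calls among 106. The members and lists were chosen with earlier results of these data known. Named are the members, the other Acot genes, in each list up to 3 genes with the smallest p that rose and fell and the most abundant, the genes most like a member, and markers through their lists. Tf of the hepatocyte list was not matched.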

Additional observations from a re-analysis of the deposited data

How the results depend on the processing

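The rises of Acot1 (log2 fold change 1.28 to 1.35) and Acot2 (0.64 to 0.88) and the fall of Acot3 (-0.69 to -0.48) passed the test under all 19 alternatives. Without single libraries, Acot genes called higher numbered 2, and those called lower 1 to 2, the second being Acot11 without DIO replicate 1 (-1.49). Without single libraries Acot13 ran from -0.07 to 0.01, changing sign without DIO replicate 4 (adjusted p = 0.973), and Acot8 from -0.49 to 0.06, changing sign without DIO replicate 5 (adjusted p = 0.955). Limma-voom at B above 0 called 860 of all genes, against 1883, and single libraries left out gave 1432 to 1859. With library size as the only scaling the split of all called genes was 904 higher and 961 lower, against 979 and 904. Other thioesterases called lower, 2 by the main test, numbered 1 with DESeq2's Wald test, without a filter, with the replicate block and in the 6 libraries numbered 1, 4 and 5 without it, 0 at B above 0, and 0 to 2 without single libraries, where 0 to 1 rose. PPAR alpha targets called lower numbered 1 with library size only, filterByExpr, 10 counts in every library, the block, and the 6 libraries, and 0 to 1 without single libraries. In the CoA list 1 gene fell in the 6 libraries, and 0 to 1 without single libraries. The cause of these moves was not tested. The setting with 6 libraries was chosen after seeing the data.

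Mice with the same number did not deviate together (correlations of -0.007, -0.019 and -0.046 for numbers 1, 4 and 5). No pairing by number was thus seen, and the labels state none, but so few libraries cannot exclude it. With the replicate block, 1570 genes were called, against 1655 in the same 6 libraries without it. Within numbers the log2 ratios differed by 0.66 (Acot1 to Acot2), 1.82 (Acot1 to Acot3), 1.43 (Acot1 to Acot4), 1.16 (Acot2 to Acot3), 0.76 (Acot2 to Acot4) and -0.39 (Acot3 to Acot4), each with an exact sign-flip p of 0.25, the smallest that 3 pairs allow. Without single libraries these differences ranged from 0.48 to 0.76, 1.77 to 2.04, 1.36 to 1.49, 1.06 to 1.56, 0.65 to 1.01 and -0.55 to -0.41. Depth limits Acot8, Acot9 and Acot11, with 146, 218 and 42 counts in all.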
